A study of Mus musculus with 6 samples.

Results

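Crypt progenitor genes are genes known from the proliferating cells at the base of the intestinal crypts. The set here was Prom1, Plet1, Sox9, Cd44, Ephb2, Ephb3, Myc, Ascl2 and Hes1, 9 genes chosen by name with earlier results for the same mice in view. Plet1 was set beside the crypt genes, and is described below from progenitors of other tissues. A probe set, the group of probes that measures 1 transcript on the array, was taken where its annotation gave exactly 1 of these symbols. By that rule 7 of the 9 genes had 10 probe sets, out of 12422 in the table; Sox9 and Ephb2 matched none and were not analysed here. Gene expression had been measured on 1-colour Affymetrix arrays, 1 mouse per array, in RNA of the whole small intestine. The 3 Cftr null mice were CFTR(-/-), and the 3 Cftr control mice were CFTR(+/+). Cftr is the chloride and bicarbonate channel lost in cystic fibrosis. All 6 mice were 40 days old, congenic on the black6 background, and on the liquid diet Peptamen from day 10, which the labels give as a guard against a blocked gut. Each group had 2 males and 1 female, and the females were null replicate 2 and control replicate 3. The control mice received the same diet, so none of the values describes mice on solid food.

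The crypt is the pocket of epithelium from which the intestinal lining is renewed. Wnt signals keep its stem cells dividing and turn on Ascl2, a transcription factor of the stem cells, Myc, a growth and cell division factor, Cd44, a hyaluronan receptor, and the Eph receptors, which sort cells along the crypt by contact with ephrins. Notch signals act through Hes1, a repressor that holds progenitors back from the secretory fate. Prom1, also called prominin 1, is a membrane glycoprotein of surface protrusions and marks crypt cells in the mouse. Plet1 is a surface protein of placenta, hair follicle and thymic epithelial progenitors.

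Prom1 and Plet1 are the members above the filter on dim probe sets in which the groups stood apart, and their upstream sequences are shown for that reason. RefSeq's promoter table (GRCm38.p6) held 6 of the 9 genes. The 250 bases before an annotated start are given 5' to 3' on the gene's strand, and Prom1 has 2 annotated starts in the table. Capitals mark matches on either strand to any of 4 motifs. The TATA box was searched as TATAAA. The CCAAT box was searched by the letters of its name. The AP-1 site was searched as TGACTCA. The Tcf/Lef site, through which Wnt signals act, was searched as CTTTGAT.
Prom1, chr5:44101737-44101986, minus strand: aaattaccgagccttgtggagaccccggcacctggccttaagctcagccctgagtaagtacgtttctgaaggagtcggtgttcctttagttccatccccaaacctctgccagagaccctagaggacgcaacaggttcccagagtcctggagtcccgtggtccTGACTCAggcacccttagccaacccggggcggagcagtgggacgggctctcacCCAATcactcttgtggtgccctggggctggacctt
Prom1, chr5:44094769-44095018, minus strand: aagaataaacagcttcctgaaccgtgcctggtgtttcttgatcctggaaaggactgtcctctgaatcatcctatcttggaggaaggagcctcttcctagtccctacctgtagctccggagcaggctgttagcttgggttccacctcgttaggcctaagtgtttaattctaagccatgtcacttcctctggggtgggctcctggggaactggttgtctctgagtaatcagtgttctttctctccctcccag
Plet1, chr9:50494275-50494524, plus strand: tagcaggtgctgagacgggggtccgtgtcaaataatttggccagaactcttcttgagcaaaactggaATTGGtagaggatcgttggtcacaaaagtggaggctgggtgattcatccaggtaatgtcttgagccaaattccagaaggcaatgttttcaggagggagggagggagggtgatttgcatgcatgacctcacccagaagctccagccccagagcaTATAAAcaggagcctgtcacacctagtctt
The first Prom1 window held an AP-1 match at bases -88 to -82, counted back from -1 just before the start, and a CCAAT match at -35 to -31. The Plet1 window held a TATA match at -30 to -25 and a CCAAT match in reverse at -183 to -179. The second Prom1 window held none of the 4 motifs. Of all 32851 windows of this length in the table, 12.37% held the TATA box, 33.85% the CCAAT box, 4.46% the AP-1 site and 3.21% the Tcf/Lef site. None of the 3 windows shown held a Tcf/Lef match. A match of letters is a description of the sequence and not evidence that a factor binds there.

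In the gut of mice without Cftr, Prom1 and Plet1 were higher in each null mouse than in any control mouse, whereas Hes1, Myc and Ascl2 had overlapping groups. One of 3 probe sets of Cd44 was also apart, at very low levels. Each value is a scaled intensity in arbitrary units, and intensities of different probe sets cannot be set against each other. Differences are log2 changes, null minus control, of the intensity plus a pseudocount of 11.7, which makes the changes of dim genes smaller. Because the members were chosen with this contrast known, their differences are described here without a test. In whole-tissue RNA, a gene that is higher because there are more cells of a type cannot be told apart from one with more RNA per cell.

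Prom1 was measured by 2 probe sets made from the same transcript. The first read 2540.5, 2222.4 and 2927.4 in null replicates 1 to 3, against 1138.1, 840.5 and 1218.3 in control replicates 1 to 3. The lowest null mouse stood above the highest control mouse, and the means were 2563 ± 353 in null and 1066 ± 199 in control mice (SD, n = 3 each). The log2 change was 1.27 (SE 0.17), a 2.41-fold difference. The second read 1281.5, 1125.2 and 1388.6 in null mice, against 593.9, 342.8 and 524.9 in control mice. Its groups were likewise apart, and its log2 change was 1.39 (SE 0.21), 2.61-fold. In both probe sets null replicate 3 was the highest null mouse, null replicate 2 the lowest null mouse, and control replicate 2 the lowest of all 6.

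Plet1, with a single probe set, had the largest log2 change of the 6 member probe sets tested. It read 691.1, 427.1 and 669.4 in null mice, against 112.2, 76.2 and 137.8 in control mice. The means were 596 ± 147 in null and 109 ± 30.9 in control mice (SD, n = 3 each). The control mice lay close to the level of 109.7 that was used to filter out dim probe sets, the 40th percentile of all values. Since the control mean on the log scale was below that level, the difference is given as a bound: Plet1 was at least 4.90-fold higher in null mice. The fitted log2 change was 2.34 (SE 0.26).

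**Figure D1:**
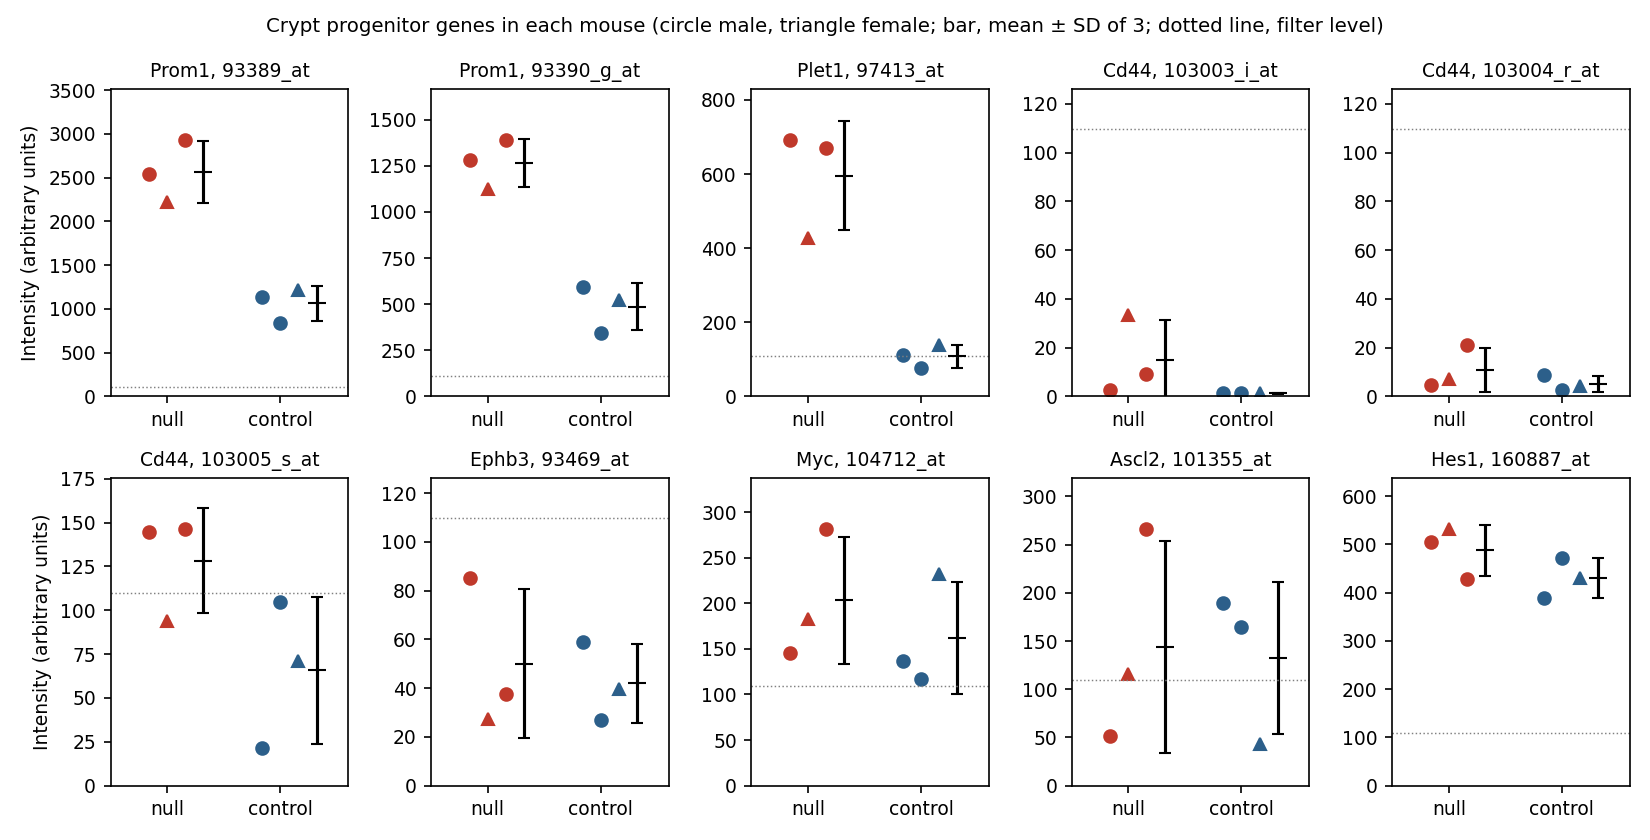
Intensity in arbitrary units of the 10 member probe sets in each mouse, null mice (red) left of control mice (blue), males as circles and females as triangles. Black bars are the mean ± SD of 3 mice, cut off at 0, and the dotted line is the filter level of 109.7. Both Prom1 probe sets, Plet1 and 1 very dim Cd44 probe set separate the groups, while Hes1, Myc and Ascl2 do not.

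Hes1, the Notch-induced repressor, had the smallest spread within groups of the tested members (SD 0.15 on the log2 scale). It read 504.0, 530.9 and 428.6 in null mice, against 389.1, 472.1 and 430.4 in control mice. Null replicate 3 lay below 2 of the control mice, so the groups overlapped, with a log2 change of 0.17 (SE 0.14). Myc read 145.6, 183.2 and 281.0 in null mice, against 136.3, 116.8 and 231.8 in control mice. The groups overlapped and the log2 change was 0.32 (SE 0.32), about the size of its error. Leaving out null replicate 3 gave 0.07, leaving out control replicate 2 gave 0.13 and leaving out control replicate 3 gave 0.59. It was 0.64 in males and -0.32 between the females. Ascl2 read 51.6, 115.3 and 265.7 in null mice, against 189.5, 164.9 and 42.9 in control mice. Its highest null mouse had 5.15 times the lowest and its highest control mouse 4.42 times the lowest. The log2 change of 0.07 was thus imprecise (SE 0.65), and 2 SE on either side take in a change of 2-fold in each direction. The direction for Ascl2 also turned on single mice: without control replicate 3 the log2 change was -0.53, without null replicate 3 it was -0.48, and without null replicate 1 it was 0.59. In males alone it was -0.51.

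The other 4 member probe sets were under the filter level in at least 4 of the 6 mice and were left out of the fit. The brightest for Cd44 read 144.9, 93.8 and 146.1 in null mice, against 21.4, 104.7 and 71.3 in control mice. One control mouse stood above the lowest null mouse, so these groups overlapped too. A second read 2.7, 33.3 and 9.4 in null mice, against 1.6, 1.3 and 1.2 in control mice, so every null mouse lay above every control mouse, with all 6 values far under the filter level. The third read 4.5 to 21.2 in null and 2.5 to 8.9 in control mice, and its groups overlapped. All 3 Cd44 probe sets and the second of Prom1 carry a letter in their names that can mark shared or less specific probes. Ephb3, the receptor that helps to place Paneth cells at the crypt base, read 85.1, 27.5 and 37.8 in null mice, against 59.0, 27.1 and 39.7 in control mice. Its log2 change was 0.14, but -0.24 without null replicate 1 and -0.07 without control replicate 2. Because these probe sets were dim, none of their differences is called a change.

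The groups did not overlap, with null mice higher, in 3 of the 6 member probe sets tested and in 1 of the 4 not tested. Among all 7601 probe sets tested this held for 13.1%. Since the members were named for the difference in Prom1 and Plet1, nothing is read from that count. The log2 change without any 1 mouse lay between 1.11 and 1.37 for the first Prom1 probe set, between 1.16 and 1.54 for the second, and between 2.13 and 2.56 for Plet1.

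Sex was not used to choose the members and could be tested. Of the 6 member probe sets, 0 differed between females and males in a limma model with genotype, and 0 had an unadjusted p under 0.05. Over all 7601 probe sets, 2 passed, or 0.0263%, and 378 had an unadjusted p under 0.05. The log2 changes, female minus male, were 0.01 (SE 0.20) and -0.02 (SE 0.23) for Prom1 and -0.07 (SE 0.29) for Plet1, and ran from -0.92 for Ascl2 to 0.34 for Myc. The difference between null and control mice was then compared between the sexes. For Plet1 it was a log2 change of 1.55 between the single females and 2.73 between the males, a gap of -1.18 (SE 0.42, unadjusted p = 0.0291, limma adjusted p = 0.9998). Both Prom1 probe sets also had the smaller difference in females, at 0.86 against 1.47 in males for the first and 1.08 against 1.54 for the second. With 1 female per group, 0 of the 6 members and 0.00% of all probe sets passed this test, and 236 of all had an unadjusted p under 0.05.

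The pattern of Prom1 over the 6 mice was set against that of every other tested gene. The measure was the root mean square difference of the log2 values, each profile taken minus its own mean. It includes the difference between null and control mice, so genes with a log2 change like that of Prom1 come out near. The changes of the 5 nearest genes ran from 0.96 to 1.36, and shared regulation was not tested. The second Prom1 probe set lay at 0.12 from the first. The 5 nearest genes were Gsr, glutathione reductase (0.09), Prss32, a serine protease (0.14), Mfsd4a, a membrane transporter of the major facilitator family (0.15), Ceacam1, an adhesion molecule (0.17), and Mptx1, a pentraxin of Paneth cells (0.18). Gsr, for instance, read 4308, 3333 and 5102 in null mice, against 1701, 1399 and 1938 in control mice. As for Prom1, null replicate 3 was the highest and control replicate 2 the lowest mouse. Plet1 lay farther off, at 0.56, with its larger log2 change, and 1274 tested probe sets were nearer to Prom1. Myc (0.55), Hes1 (0.63) and Ascl2 (1.08) were at like or greater distances. For Plet1 itself, compared after the values were seen, the nearest genes were Capg, an actin-capping protein (0.24), Cma2, a chymase (0.27), and Oxct1, an enzyme of ketone body use (0.30).

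**Figure D2:**
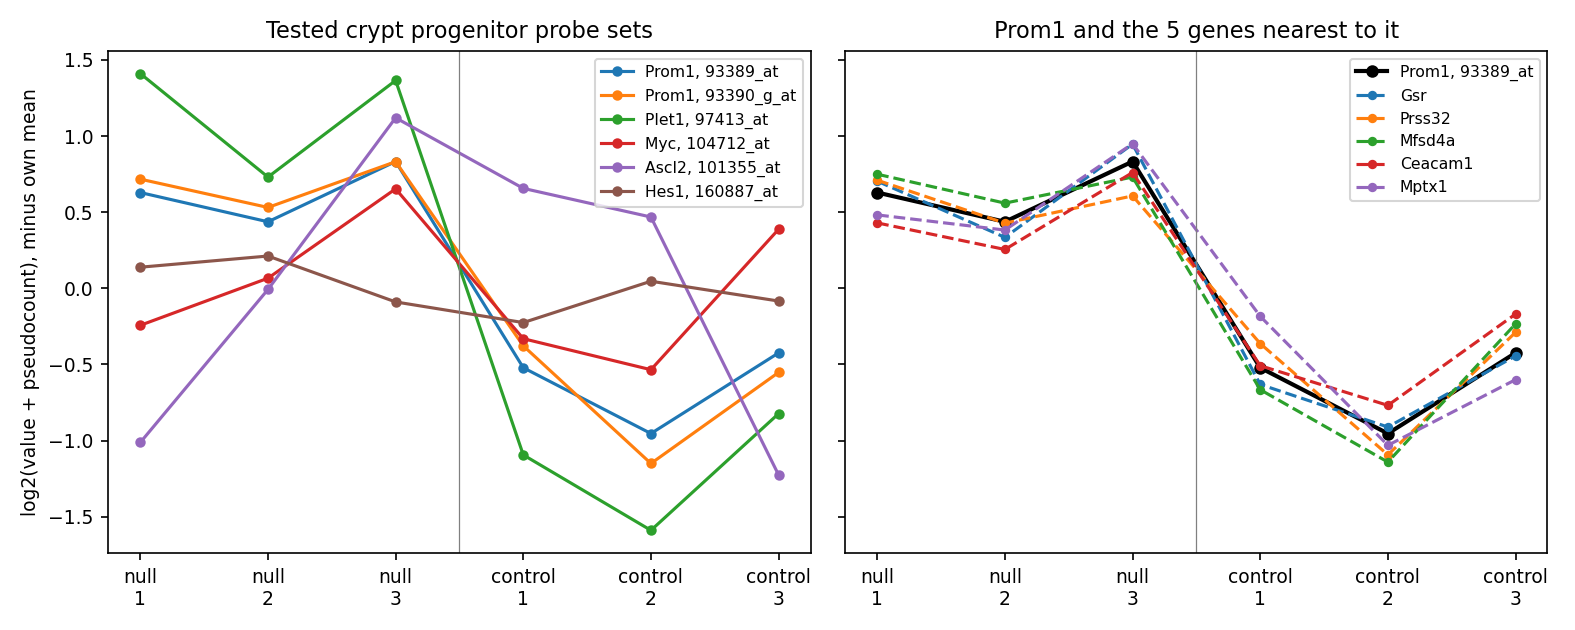
The log2 value plus pseudocount of each probe set in each mouse, minus its own mean over the 6 mice, null mice left of control mice. The left panel has the 6 tested member probe sets, of which both Prom1 lines nearly coincide, and the right panel has Prom1 with the 5 genes nearest to it, at distances of 0.09 to 0.18.

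The mice did not keep 1 order over the members. Null replicate 3 was the highest null mouse in 6 of the 10 probe sets, and null replicate 2 the lowest in 5. Control replicate 2 was the lowest control mouse in 6, among them both of Prom1, Plet1, Myc and Ephb3. Control replicate 2 was also the lowest of all 6 mice for the summed markers of Paneth cells, goblet cells, smooth muscle and fibroblasts. For leukocyte markers it was instead the highest of all 6, at 3281. For Paneth cells it was at 11992, against 21293 and 24549 in the other control mice, and for goblet cells at 62761, against 77119 and 76843. Without it the first Prom1 probe set had a log2 change of 1.11 and Plet1 of 2.13.

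Other genes known from crypt cells gave no calls. Of 21 crypt stem cell and progenitor genes tested, from a list of 34, 0 passed in either direction by limma (Benjamini-Hochberg adjusted p under 0.05 over 7601 probe sets), and 2 had an unadjusted p under 0.05. Over all probe sets tested, 1.13% passed as higher in null mice and 1.87% as lower, and 1313, or 17.3%, had an unadjusted p under 0.05. With shares so low and a list so short, 0 calls is not read as a result about these genes. The list's median log2 change was 0.03, against 0.03 over all probe sets tested, and 11 had a change above 0 and 10 below 0. Single mice set the sign of this median, which was -0.08 without control replicate 2 and 0.09 without control replicate 3. Both genes with an unadjusted p under 0.05 are cyclins, Ccnd2 at the low end of the list and Ccnd1 at the high end. Ccnd2 read 51.3, 137.0 and 52.4 in null mice, against 226.7, 143.2 and 319.2 in control mice. With the null mean under the filter level it was at least 1.90-fold lower (limma adjusted p = 0.125, and 0.0412 with sex as a covariate). Ccnd1 had a log2 change of 0.39 (SE 0.15). The brightest member, the integrin Itgb1, averaged 7035 in null and 7217 in control mice, and Elf3, an epithelial transcription factor, 4919 in null and 4194 in control mice. The stem cell receptor Lgr5 was too dim to be tested, at 20.0 to 47.0 in null and 11.5 to 106.3 in control mice. Lrig1, Tnfrsf19 and Msi1 of the same list were also too dim to be tested.

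The signalling pathways that act on the members gave 0 calls as well. Over all probe sets tested, 1.13% passed as higher and 1.87% as lower, and 17.3% had an unadjusted p under 0.05. These shares stand beside the Eph and Myc lists below too. With shares so low and lists so short, 0 calls is not read as a result about the pathways. Of 22 Wnt pathway components tested, 0 passed by limma and 1 had an unadjusted p under 0.05. The median was -0.08, and -0.03 without null replicate 3. The brightest, beta-catenin (Ctnnb1), which carries the Wnt signal to the nucleus, averaged 7868 in null and 8341 in control mice. Gsk3a, a kinase that marks beta-catenin for breakdown, averaged 6142 in null and 7064 in control mice. Of 20 Notch pathway genes 0 passed and 3 had an unadjusted p under 0.05, with a median of -0.10, which was -0.06 without null replicate 1 and -0.23 with the filter raised to 288.7. The receptor Notch1 was lowest in the list, at 47.6, 137.2 and 138.6 in null mice, against 364.6, 246.1 and 225.9 in control mice. Its groups did not overlap, and with the null mean under the filter level it was at least 2.34-fold lower, but it did not pass (limma adjusted p = 0.118). The brightest Notch genes were the corepressor Tle5, at 3490 in null and 4171 in control mice, and the glycosyltransferase Rfng, at 926 in null and 1145 in control mice.

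Of 8 Eph receptors and ephrins tested, 0 passed by limma, 3 had an unadjusted p under 0.05, and 7 had a log2 change above 0. In 4 of the 8 the null mice lay above the control mice without overlap, against 13.1% of all probe sets tested. In 0 of the 8 the null mice lay below without overlap, against 819 of the 7601 probe sets tested. The median was 0.33, but 0.16 without control replicate 1, 0.22 without null replicate 2, 0.18 with the probe sets of a gene averaged and 0.17 with no filter. The brightest, the ephrin Efnb2, a ligand of Eph receptors of the B class, averaged 1878 ± 254 in null and 1384 ± 248 in control mice (SD, n = 3 each; log2 change 0.45, SE 0.17). Efna1, a ligand of the A class, had the largest change, at 0.51 (SE 0.15, limma adjusted p = 0.125). Efna3 averaged 1278 in null and 1245 in control mice. Of 36 Myc partners and Myc target genes 0 passed, 6 had an unadjusted p under 0.05 and 26 had a change above 0, with a median of 0.18. Max, the partner that Myc needs to bind DNA, was lowest at -0.48 (SE 0.18), and the brightest, lactate dehydrogenase Ldha, averaged 18040 in null and 15071 in control mice, followed by the chaperone Hspd1 at 7354 in null and 7559 in control mice. Null mice lay above control mice without overlap in 5 of these 36 genes. This held for 2 of 20 Notch, 0 of 22 Wnt and 1 of 21 crypt stem cell and progenitor genes. Null mice lay below without overlap in 3 Myc, 4 Notch, 2 Wnt and 1 of the crypt stem cell and progenitor genes.

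Among the 6 gene lists, only the cell cycle genes gave calls in the fit without sex. Of 33 tested, 2 rose and 0 fell, against 1.13% and 1.87% of all probe sets tested. Of the 33, 29 had a log2 change above 0, against 4126 of the 7601, and the median was 0.28. An unadjusted p under 0.05 was found for 9, against 17.3% of all probe sets tested. The 2 calls were Cks1b, a subunit of cyclin-dependent kinases (log2 change 0.94, SE 0.15, limma adjusted p = 0.0177), and the mitotic kinase Plk1 (0.55, SE 0.11, limma adjusted p = 0.0456). In 13 of the 33 the null mice lay above the control mice without overlap, against 13.1% of all probe sets tested. In 1, Foxm1, they lay below without overlap, against 819 of the 7601. Foxm1 was among the 9 with an unadjusted p under 0.05 (log2 change -0.46, SE 0.13, limma adjusted p = 0.109). Leaving out control replicate 1 gave 0 calls in this list, as did leaving out either null replicate 2 or null replicate 3. Leaving out any other single mouse gave 1. Array-wide calls fell too, from 228 to 76 without control replicate 1, 182 without null replicate 2 and 84 without null replicate 3. A call lost with fewer mice thus does not show that it rested on the mouse left out. Cks1b read 585.0, 696.9 and 783.4 in null mice, against 319.7, 367.5 and 369.0 in control mice.

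**Figure D3:**
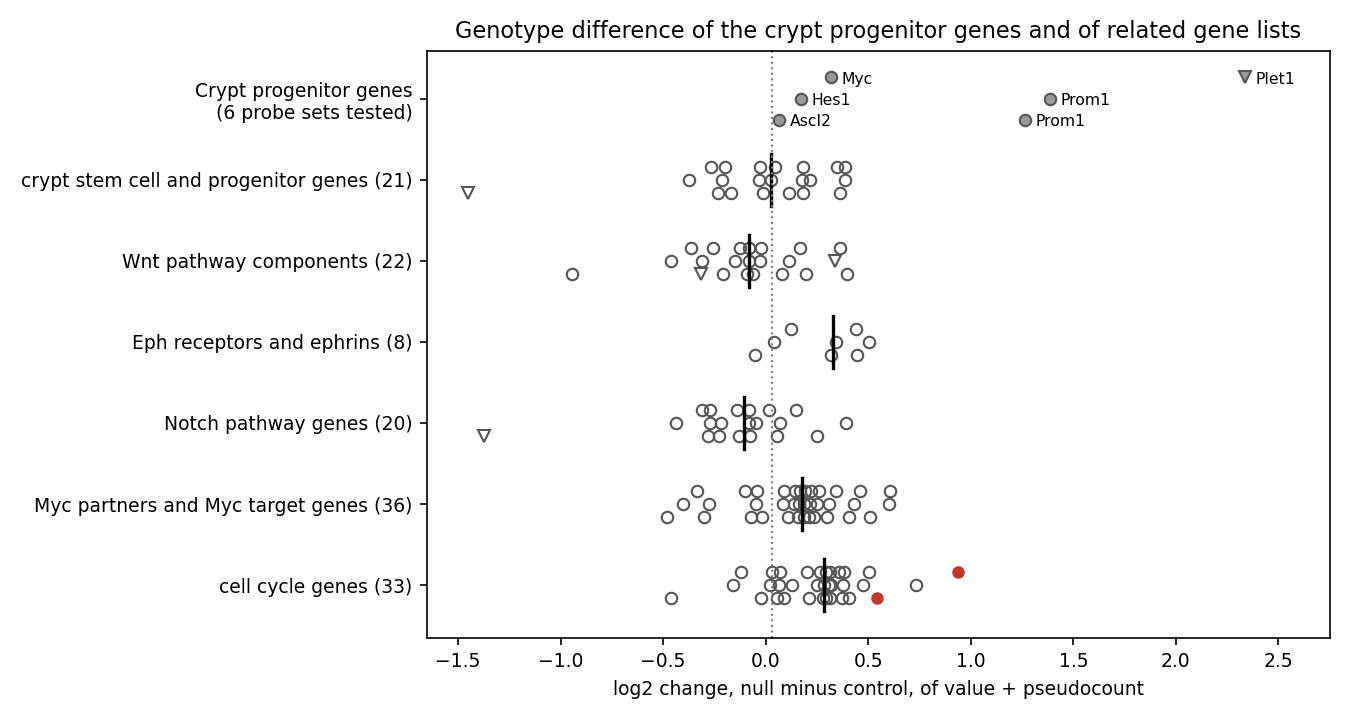
Each symbol is the log2 change, null minus control, of a tested member probe set (top row, grey) or of a gene of a related list by its brightest tested probe set, with the number tested in brackets. Red symbols in the lists passed the threshold, triangles have a dimmer group under the filter level and so only a bound, black bars are list medians, and the dotted line is the median of all probe sets tested, 0.03. Cks1b and Plk1 are the red symbols, and Ccnd2 and Notch1 the triangles farthest to the left.

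Markers of other cell types were read beside these values. The tissue was small intestine by its markers: 11 of 13 enterocyte markers had a probe set and all 11 passed the filter, the apolipoproteins Apoa1 and Apoa4 among them. Their summed level was 64893 to 103067 in null mice, against 120956 to 141383 in control mice, and 1 of them fell, Akp3, an intestinal alkaline phosphatase (log2 change -1.94, limma adjusted p = 0.00399). Summed smooth muscle markers were at 15937 to 20548 in null mice, against 8952 to 13505 in control mice, over 7 of 7 markers, and fibroblast markers at 11389 to 12497 in null mice, against 9262 to 10285 in control mice, over 6 of 6. Of these 13, only the smooth muscle actin Actg2 rose (log2 change 1.35, limma adjusted p = 0.0151). Actg2 averaged 7351 in null and 2904 in control mice and so weighs heavily in the smooth muscle sum. Its probe set carries a letter that can mark shared probes. Of the other smooth muscle markers, Tagln, Cnn1 and Des were apart, and Acta2, Myh11 and Smtn overlapped. Enteroendocrine markers summed to 6407 to 8564 in null mice, against 9702 to 11124 in control mice, over 8 of 8. Leukocyte markers, whose cells also carry Cd44, summed to 2700 to 2878 in null mice, against 2882 to 3281 in control mice, over 11 of 12, so the groups were apart by little. The macrophage marker Cd68 went the other way, at 410.7 to 431.1 in null mice, against 316.0 to 401.0 in control mice. Its log2 change was 0.25 (limma adjusted p = 0.397). Csf1r, also a macrophage marker on this list, averaged 985 in null and 1025 in control mice, and its groups overlapped. Endothelial markers were at 568 to 730 in null mice, against 751 to 809 in control mice, over 5 of 5. None of the enteroendocrine, leukocyte or endothelial markers passed the threshold. The sums overlapped for Paneth cell markers (18928 to 21283 in null and 11992 to 24549 in control mice, 4 of 9). Most of that sum was Itln1, which averaged 14748 in null and 16044 in control mice and overlapped. Mmp7 was apart, at 3785.9 to 4903.7 in null mice, against 1235.2 to 3686.7 in control mice, but did not pass (limma adjusted p = 0.26). Pla2g2a overlapped, as did Defa24, which was too dim to be tested. Goblet cell sums also overlapped (68067 to 69539 in null and 62761 to 77119 in control mice, 6 of 7). So did those of enteric glia (403 to 457 in null and 325 to 432 in control mice, 3 of 4). No marker on any of these lists was at 0, and the part of cell makeup in the Prom1 and Plet1 values was not tested. Of 5 tuft cell markers 0 were matched, and they were not analysed here.

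**Figure D4:**
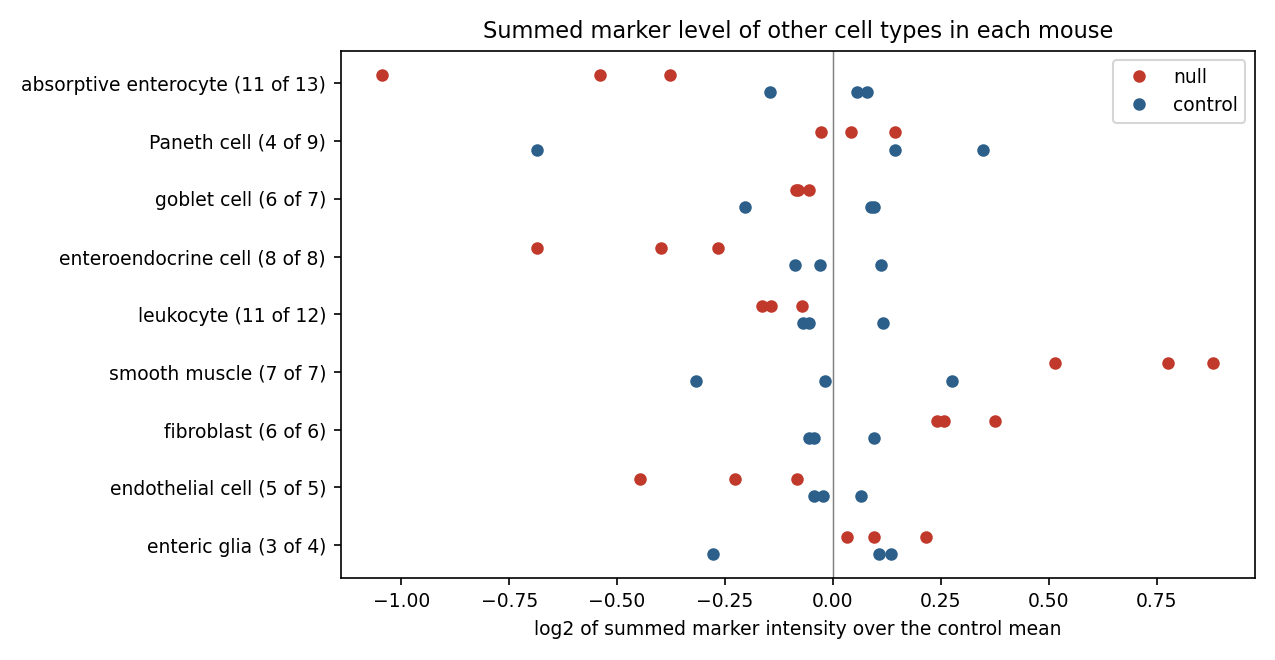
Log2 of the summed intensity of each cell type's markers in each mouse over the control mean, null mice (red) above control mice (blue), with the number of markers matched. The sums of the groups do not overlap for enterocyte, enteroendocrine, leukocyte and endothelial markers (null mice lower) or for smooth muscle and fibroblast markers (null mice higher), where 1 enterocyte and 1 smooth muscle marker passed the threshold and 0 of the others; they overlap for Paneth cell, goblet cell and glial markers.

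The Cftr transcript checked the genotype labels. Its brightest probe set read 295.6 to 368.5 in null mice, against 801.6 to 1017.5 in control mice; the labels do not say which part of the gene was altered, so whether the probes lie within it is unknown. All 6 arrays had a 2%-trimmed mean of 500.3. The number of arrays, 3 a group, limits the precision.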

How the data were processed

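The deposited intensity values, on a linear scale and scaled by the authors before deposit as the equal trimmed means show, were used as they stand. Which software made them is not given in the sources, and no detection calls were used. The table had 12488 probe sets, 66 of them controls that were left out; of 12422 kept, 10833 had 1 gene symbol, 396 several and 1193 none. Values became log2(value + 11.7), the pseudocount being the 10th percentile. A probe set was tested if above 109.7 in at least 3 of 6 arrays. Null and control were compared with limma 3.58.1 in R 4.3.3 (eBayes with a trend, two-sided, Benjamini-Hochberg over 7601 probe sets, threshold 0.05), and sex and its interaction with genotype in the same way. The functions were tested on simulated data. Where the dimmer group's log mean lay at or under 109.7, the fold is against that level.

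The members, the 6 gene lists and the 10 marker lists were chosen with earlier results of these data known. For each listed gene the brightest probe set that passed the filter was used. Genes named were the members, Cftr, up to 4 called genes of a list or else its 2 brightest, up to 2 called markers, and the 5 nearest to Prom1. Others, such as Ccnd1, Ccnd2, Lgr5, Notch1, Efna1, Max, Cd68, Apoa1, Apoa4 and the genes nearest to Plet1, were named after their values were seen. The same holds for Csf1r, Foxm1, Lrig1, Tnfrsf19, Msi1 and the single Paneth cell and smooth muscle markers other than Actg2. No pairing or batch is stated, and replicates were numbered in accession order.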

Additional observations from a re-analysis of the deposited data

How the results depend on the processing

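The alternatives were quantile normalization, equal medians, pseudocounts of 2.925 and 46.8, no filter, a filter at 288.7, eBayes without a trend or with robust variance, sex as a covariate, males only and dropping 1 mouse at a time. Lists were also read with probe sets of a gene averaged, and without probe sets whose names carry a letter before _at. Of 228 probe sets that passed, 86 higher and 142 lower, 141 (49 and 92) did without a trend and 135 (50 and 85) in males only. Without 1 mouse the number was 52 to 182, with 17 to 68 higher and 35 to 117 lower. All 10 member probe sets had a log2 change above 0, as had 4126 of the 7601 probe sets tested. It was 9 in males only and 9 to 10 without 1 mouse, Ephb3 or Ascl2 being the one below 0. Since the members were chosen with this contrast known, and 4 of the 10 were too dim to be tested, nothing is read from that count. With sex as a covariate 1 crypt stem cell and progenitor gene passed, Ccnd2, in place of 0. Of the cell cycle genes, 1 passed without lettered probe sets, with quantile normalization, with no filter, without a trend and with sex as a covariate, 0 in males only, and 0 to 1 without 1 mouse. The Wnt, Eph, Notch and Myc lists and the tests of sex kept 0 calls under each alternative run. The cause of these differences was not tested. No paired analysis was possible because the labels give no replicate numbers.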
